A study of Schmidtea mediterranea with 177 samples.

Results

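The transcripts described here are 60 contigs of the planarian *Schmidtea mediterranea* that were seen more often in muscle cells of the head tip than in muscle cells of the rest of the body, after 11 known anterior genes had been set aside. They were chosen from 26560 transcripts by the measured values themselves. A cell expressed a transcript, in the sense used here, if it held more than 2 of its reads. Transcripts expressed in at most 20% of the 104 muscle cells of regions 2 to 10, of which there were 21237, were ranked by the share of expressing cells among the 11 muscle cells of region 1, the head tip, minus the share in regions 2 to 10, and the first 60 were taken. The 11 genes left out were *FoxD*, *notum*, *zic-1*, *zic-2*, *sFRP-1*, *fz5/8-4*, *ndk* and 4 *ndl* genes (*ndl-5*, *ndl-4*, *ndl-2*, *ndl-1*). Because the rule used the whole contrast of head tip muscle with other muscle, that contrast is given below as a description with no test.

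The cells came from intact, starved animals of the asexual CIW4 strain with no treatment or gene knockdown, cut across into 10 regions, numbered along the body so that region 10 is the tail tip. Tissue beside the midline was left out, as was the pharynx of regions 5 and 6. Sorted non-dividing cells were amplified with SmartSeq2, a full-length cDNA method without molecular identifiers, and those positive for a muscle marker in qRT-PCR (*collagen* or *troponin*) were sequenced, so the cells later annotated as non-muscle had passed this screen too. The labels annotate 115 of the 177 cells as muscle and 62 as non-muscle. No animal or day is named for a cell, so the cells of a class in a region were taken as 1 sample in the tests. Only the fits with the range of cell numbers as a covariate split a region further, by these ranges. The spread between animals was not measured.

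Planarian body wall muscle is known as the tissue that expresses position control genes, among them Wnt ligands, Wnt inhibitors and FGF receptor-like (FGFRL) genes, in domains along the anterior-posterior (AP) axis. At the head tip, a few muscle cells form the anterior pole, which expresses the Wnt inhibitor *notum* and the transcription factors *FoxD* and *zic-1*. The *ndk* and *ndl* genes encode FGFRL proteins, and *sFRP-1* and *fz5/8-4* encode a secreted Wnt-binding protein and a Frizzled receptor. The 10 members with an annotation do not belong to these families, and 0 of the 60 are among the 44 genes that the study lists as regionally expressed in muscle. The 11 genes that the rule left out are all on that list, so the rule itself had removed listed genes. A further gene of that list, DNAJB13*, tied with the last member and was left out only by the order of the file.

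The study's supplement has an entry for 10 of the 60, of which 6 have a human BLASTx match and 9 a PFAM domain. These entries are in the sheets that hold the study's comparisons of regions and its in situ hybridization results. None of the 10 is among the genes that the study went on to list as regionally expressed in muscle. Names with an asterisk are those of the human match, and the other members are called by the number of their contig (dd_7323 for dd_Smed_v4_7323_0_1). The other 50 are named by contig only. Members with immunoglobulin or leucine-rich repeat domains were NCAM1* (dd_7422), LRIG2* (dd_11266), KIRREL3* (dd_11280) and PPP1R37* (dd_5089). NCAM1 and KIRREL3 are cell adhesion proteins of the immunoglobulin superfamily in vertebrates, LRIG2 is a transmembrane protein with leucine-rich repeats and immunoglobulin domains, and PPP1R37 is a regulatory subunit of protein phosphatase 1. Members of the ubiquitin pathway were UBE2H* (dd_4514), a ubiquitin-conjugating enzyme, and dd_6701, with the UCH domain of enzymes that remove ubiquitin. The remaining annotated members were ENDOG* (dd_14758), a mitochondrial nuclease in mammals, dd_7323 with RNA recognition motifs, dd_8607 with the CD225 domain of small membrane proteins, and dd_10073, which had neither a BLASTx match nor a domain.

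The PCR primers that the study designed for the 4 members with immunoglobulin or leucine-rich repeat domains are shown because they identify the contig that stands behind each of these human names. Each is written 5′ to 3′, with the last 5 bases at the 3′ end, from which the polymerase extends, in capitals.
NCAM1* 5′ inner: tgtatttcccgaaaaatcGTCCT
NCAM1* 3′: cgaccccagacgaTCCAG
LRIG2* 5′ inner: tcaactctctcattgacgTTTTC
LRIG2* 3′: gttcggttcgtcgTCGGA
KIRREL3* 5′ inner: aacggaaactggttgaaATGCT
KIRREL3* 3′: tggcgttctcatgcTTGGT
PPP1R37* 5′ inner: accacctgaaacaaacacTTTTG
PPP1R37* 3′: tctgcatagggatcattTGGCA

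The muscle, epidermal and neoblast markers below are contigs that defined the study's principal component analysis of these same cells. The study labelled muscle by that analysis and by *troponin*, which is among the muscle markers. The levels of the muscle and epidermal markers therefore describe the label and are no separate check of it. The summed level of the 12 muscle markers had a median of 22031 cpm, reads scaled to 1000000 reads of the cell, in head tip muscle cells, with a range of 14181 to 72797 cpm, and of 16198 cpm in muscle cells of regions 2 to 10, with a range of 781 to 98875 cpm. All 12 were expressed in at least 1 head tip muscle cell. Of the 12 epidermal markers, 3 were expressed in any head tip muscle cell and 4 had no read there, with sums of 0 to 471.1 cpm against 0 to 4154 cpm in other muscle. The 12 neoblast markers summed to 656 to 10894 cpm in head tip muscle and to 178 to 20574 cpm in other muscle. The nervous system list was built from contigs that the study's in situ hybridization placed in the central nervous system. Genes that the study lists as regionally expressed in muscle were left out of it. Prohormone convertase 2, which the neoblast list also holds, was added. Of the 62 contigs of the nervous system list, 5 are themselves members, so the study saw these 5 in the nervous system. The other 57 had a summed level of 2045 to 13133 cpm (median 2981) in head tip muscle and 78 to 159270 cpm (median 3244) in other muscle. Of these 57, 16 were without a read in head tip muscle. The gut list was built from contigs that hybridization placed in the gut, and 2 of its contigs are members. Without them it summed to 73.8 to 6090 cpm (median 516.1) in head tip muscle and 165 to 153501 cpm (median 1893) in other muscle. Both upper ends in other muscle came from 1 region 5 cell. The non-muscle cells of regions 3 to 10 had summed muscle markers of 10.8 to 13778 cpm (median 203), a range that overlapped that of the cells labelled as muscle. Of these non-muscle cells, 3, at 5884, 12884 and 13778 cpm, lay above a limit of 5000 cpm, and others lay between 781 cpm and this limit. The region 5 cell and these 3 cells were set apart in a selection made after seeing the data. Without these 4 cells, 59 of the 60 transcripts were chosen again. The rule uses muscle cells only, so only the region 5 cell among them could change the list.

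Between 26 and 43 of the 60 transcripts were expressed in each of the 11 head tip muscle cells, with a mean of 34.4 ± 5.70 (SD, n = 11 cells) and a median of 33. Muscle cells of regions 2 to 10 expressed 8.40 ± 5.16 of them (SD, n = 104 cells), with a range of 1 to 30. This gap is what the rule selected for. The ranges of the groups overlapped through 1 cell, a region 10 cell with 30 members and 3884642 reads, the deepest muscle cell. The other muscle cells of regions 2 to 10 had at most 24 members.

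**Figure D1:**
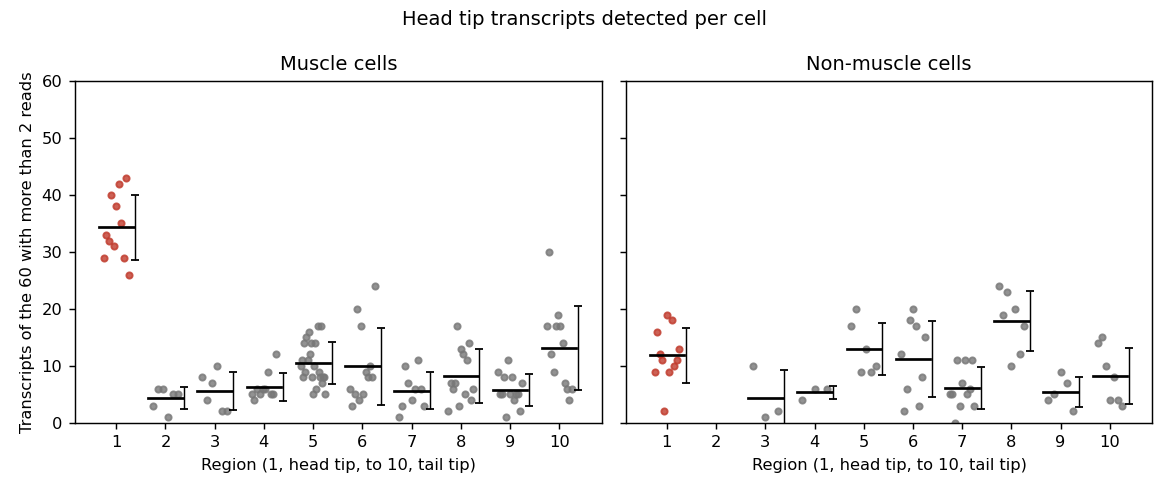
Number of the 60 transcripts with more than 2 reads in each cell, by region from head tip (1) to tail tip (10), in muscle cells (left) and non-muscle cells (right, none in region 2). Points are cells (region 1 in red), horizontal lines are means and bars are SDs. The head tip muscle cells lie between 26 and 43 and the muscle cells of region 2 between 1 and 6, while the means of the other muscle regions lie between 5.50 and 13.2.

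Outside the head tip the rule used the pooled share alone, not the regions. There, the number of members per muscle cell was lowest beside the head tip, with 4.33 ± 1.97 in region 2 (SD, n = 6 cells) and 5.50 ± 3.33 in region 3 (SD, n = 6 cells), and highest in region 10, with 13.2 ± 7.42 (SD, n = 12 cells). Region 5 had 10.5 ± 3.72 (SD, n = 23 cells) and region 6 had 9.92 ± 6.78 (SD, n = 12 cells). In the 12 muscle cells of regions 2 and 3 together, 23 of the 60 transcripts were expressed in no cell, whereas 4 of the 60 were expressed in no cell of the 12 of region 10. The regions also differed in the number of all expressed transcripts, with means of 2039 per muscle cell in region 2, 2289 in region 3 and 3968 in region 10. Over the 104 muscle cells of regions 2 to 10, the number of members followed the number of expressed transcripts of the cell (Pearson's r = 0.78, Spearman's rho = 0.79), a description of cells that share regions and depth.

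Per 1000 expressed transcripts, head tip muscle cells had 9.57 members on average, against 2.11 (region 2) to 3.16 (region 10) in the other regions of muscle. After each cell was thinned to 50000 reads, which left 11 and 99 muscle cells, a head tip muscle cell expressed 21.8 members on average and a muscle cell of regions 2 to 10 expressed 5.25. Thinned cells still differed in the number of expressed transcripts, with means of 2460 in head tip muscle and 2038 in other muscle. The thinned values per 1000 transcripts were 8.96 in head tip muscle and between 2.11 (region 7) and 3.00 (region 10) in the other regions, with 2.33 in region 2, so that region 2 was not the lowest on this scale. Among the 11 head tip muscle cells the number of members also went with the reads of the cell (Pearson's r = 0.75, Spearman's rho = 0.77). The shallowest of them, with 78163 reads, had 29, and the deepest, with 596424 reads, had 40. The highest count, 43, was in a cell with 442476 reads and the lowest, 26, in a cell with 265784 reads.

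**Figure D2:**
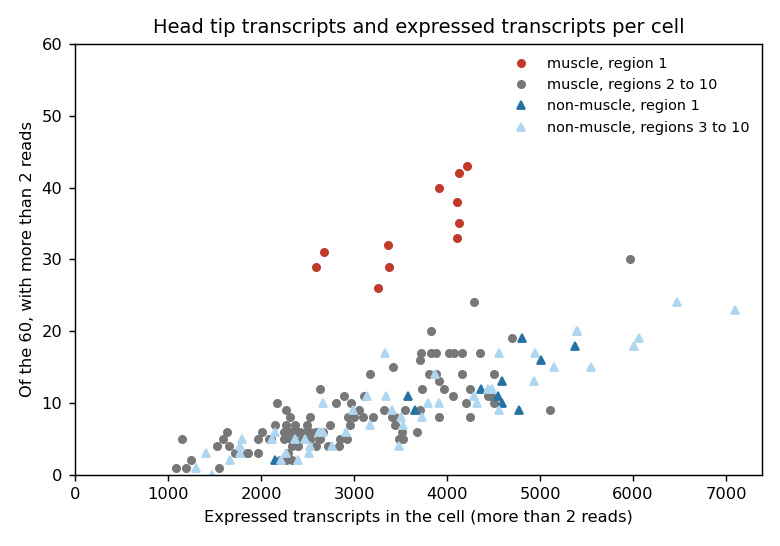
Number of the 60 transcripts with more than 2 reads (y axis) against all transcripts with more than 2 reads (x axis), 1 point per cell, for muscle (circles) and non-muscle cells (triangles) of the head tip and of the other regions. The 11 head tip muscle cells lie above the band of the other cells at the same number of expressed transcripts, a gap that the rule selected for, and the 11 non-muscle cells of the head tip lie within it.

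The members were seen in 5 to 8 of the 11 head tip muscle cells and in 4 to 20 of the other 104 muscle cells. No member was expressed in every head tip muscle cell: 4 were seen in 8 of the 11, 19 in 7, 28 in 6 and 9 in 5. By comparison, the left-out gene *ndk* was expressed in 11 of 11 head tip muscle cells and in 8 of 104 others, *fz5/8-4* in 10 of 11 and in 24 of 104, and *notum* in 4 of 11 and in 2 of 104. With the reads of all cells summed, the members had a median of 73.4 cpm in head tip muscle (range 8.80 to 428.4) and of 20.8 cpm in other muscle (range 1.40 to 158). The ratio of these sums had a median of 3.67 and was over 5 for 22 of the 60. It was below 1 for 1 member, dd_6676, with 27.8 cpm in head tip muscle and 29.1 cpm in other muscle.

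Head tip levels often rested on few cells. The cell with the most reads of a member held a median of 42.9% of its head tip muscle reads and over 50% for 15 of the 60. For dd_4462 that cell held 81.8% of the reads, and the summed level without it was 13.4 cpm in place of 63.5 cpm. For dd_4593 it held 77.9%, and the level without it was 49.99 cpm in place of 189 cpm. Without that top cell, 9 of the 60 had a lower summed level in head tip muscle than in other muscle. For 36 of the 60, the single highest level in any muscle cell was found outside the head tip.

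The first 4 by rank were expressed in 8 of 11 head tip muscle cells (72.7%, exact binomial 95% interval 39.0 to 94.0). The most abundant among the annotated ones was dd_7323, with 0 to 1510 cpm and a median of 390.98 cpm in the 11 head tip muscle cells, and a summed level of 428.4 cpm against 58.4 cpm in other muscle, where 19 of 104 cells expressed it (18.3%, interval 11.4 to 27.1). Its next highest level along the axis was in region 2, with 290 cpm from 2 of 6 cells. NCAM1* had 0 to 870 cpm and a median of 403.5 cpm in head tip muscle cells, and 421.2 cpm in the sum against 99.4 cpm in other muscle, with 19 of 104 cells. It had no read in the muscle cells of regions 2 and 9, and 170 cpm in region 10. The levels of both overlapped between the groups, since other muscle cells reached 1094 cpm for dd_7323 and 1070 cpm for NCAM1*. The other transcripts seen in 8 head tip muscle cells were far less abundant, dd_24239_0_2 with 16.8 cpm in head tip muscle and 9.03 cpm in other muscle, and dd_14367 with 27.8 cpm and 7.09 cpm. After thinning, dd_24239_0_2 was expressed in 0 of 11 head tip muscle cells and 6 of 99 others, and dd_14367 in 1 of 11 and 8 of 99. The gap in shares that ranked these transcripts was thus not seen after thinning. At their summed levels, however, an average thinned cell of either group holds too few of their reads to count as expressing. The thinned shares therefore cannot show whether the gap is kept at equal depth, and the part of depth in it was not tested. NCAM1*, after thinning, was expressed in 8 of 11 and 14 of 99, and dd_7323 in 6 of 11 and 12 of 99. Over all members, 58 had a higher share in head tip muscle after thinning. The thinned reads are part of the reads that chose the members, so this count is a description and no separate check of the contrast.

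LRIG2* was expressed in 7 of 11 head tip muscle cells, with a range of 0 to 1774 cpm and a median of 300.1 cpm, and in 20 of the other 104. Its summed level was 326 cpm in head tip muscle and 48.0 cpm in other muscle, where it peaked at 128 cpm in region 6 and lay below 1 cpm in regions 2, 3, 7 and 8. PPP1R37* was expressed in 6 of 11 head tip muscle cells and in 7 of 104 others (6.73%, interval 2.75 to 13.4), and 5 of those 7 cells were of region 5. It had 78.1 cpm in head tip muscle and 5.89 cpm in other muscle. KIRREL3*, the last member by rank, was expressed in 5 of 11 and in 9 of 104, with 75.3 cpm and 12.7 cpm.

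In the ubiquitin pathway, UBE2H* was expressed in 6 of 11 head tip muscle cells and 14 of 104 others, with 139 cpm and 50.9 cpm, and dd_6701 in 7 of 11 and 16 of 104, with 73.4 cpm and 10.4 cpm. ENDOG* was expressed in 5 of 11 head tip muscle cells and 7 of 104 others. Along the axis it had 41.5 cpm in region 1, 49.6 cpm in region 2, 30.6 cpm in region 3 and 17.3 cpm in region 4, and between 0 and 1.64 cpm in each region from 5 to 10. The remaining annotated members dd_8607 (5 of 11 and 6 of 104 cells) and dd_10073 (7 of 11 and 19 of 104 cells) had 73.4 cpm and 162 cpm in head tip muscle, against 33.7 cpm and 38.4 cpm in other muscle.

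**Figure D3:**
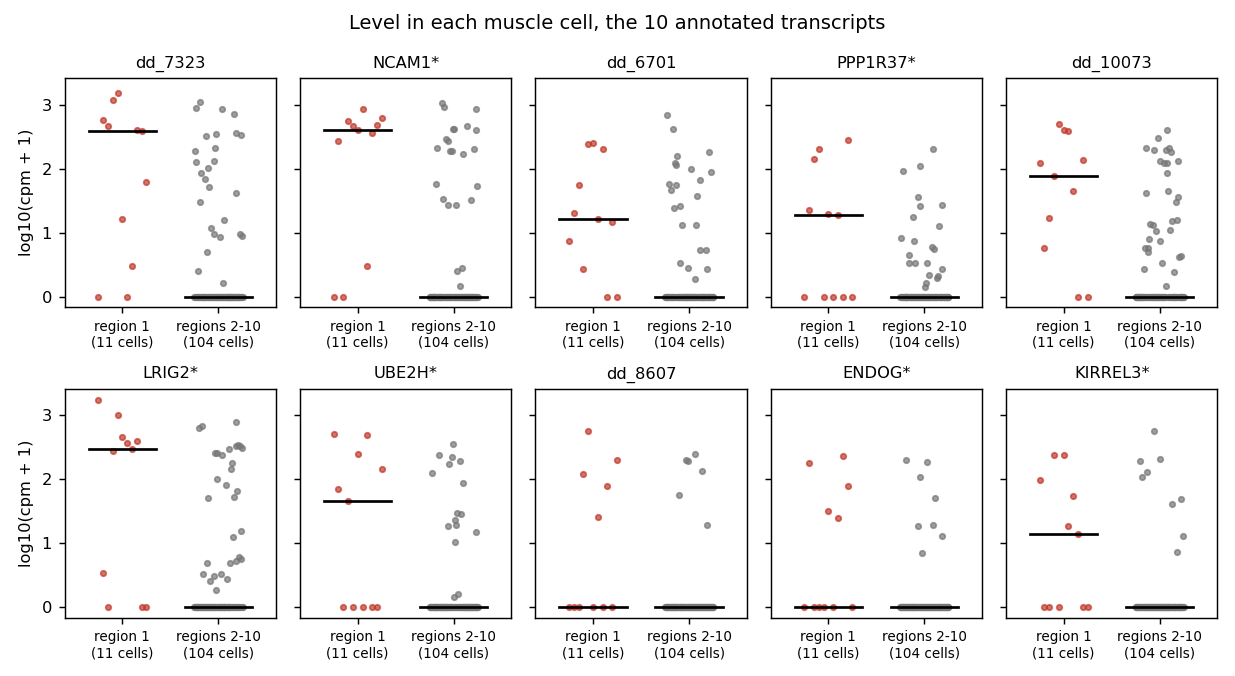
Level of the 10 annotated transcripts in each muscle cell, as log10(cpm + 1), for the head tip (11 cells, red) and regions 2 to 10 (104 cells, grey), with medians as lines. The highest head tip values are near those of the highest other cells, and the median of the other cells is 0 cpm for each of the 10 transcripts.

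Among the 20 members of highest rank, the 13 not named so far were each seen in 7 of the 11 head tip muscle cells. In other muscle, dd_11711 was seen in 12 of 104 cells, dd_10295 and dd_1987 in 13, dd_3999 in 14, dd_10908 in 17, dd_10147, dd_16508 and dd_9946 in 18, and dd_22469, dd_30942, dd_4201, dd_7374 and dd_8617 in 19. Their summed levels in head tip muscle lay between 25.6 cpm (dd_10295) and 150.4 cpm (dd_4201). The ratio to other muscle was highest for dd_7374, with 120.4 cpm in head tip muscle and 18.9 cpm in other muscle. Over all members the ratio was highest for dd_79772, with 34.1 cpm and 1.79 cpm, although it was expressed in only 5 of 11 head tip muscle cells and 4 of 104 others, and 1 cell held 59.7% of its head tip reads.

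The position of the last ranks was set by small numbers of cells. At rank 60 the difference of shares was 36.8 percentage points, which 5 transcripts tied, each seen in 5 of 11 head tip muscle cells and 9 of 104 others. KIRREL3* was taken and dd_11886, dd_1272_1_1, DNAJB13* and dd_9630 were not, by the order of the file. Of those not taken, DNAJB13* is among the genes that the study lists as regionally expressed in muscle. The 11 genes that the rule left out are all on that list too. The absence of listed genes from the 60 thus rests on the rule itself and on this tie. Just outside, dd_73347 was seen in 4 of 11 head tip muscle cells. When the same difference and limit were asked of each region in turn, with no gene left out, region 1 had 72 transcripts (0.271% of 26560) and the other regions had between 3 (regions 7 and 9) and 121 (region 10). After thinning to 50000 reads there were 56 in region 1 and between 5 (region 5) and 49 (regions 3 and 6) in the others. Regions 2 and 3 had 6 muscle cells each, and the muscle cells of region 10 had a median of about 1238250 reads. The part of cell number and depth in these counts was not tested.

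Whether the levels of the members fell away from the head within the rest of the muscle was asked by fitting log2 expression to the region number over regions 2 to 10, which the rule did not use beyond the pooled share. All 60 members were tested, and edgeR's quasi-likelihood test with Benjamini-Hochberg adjustment called 0 of the 60 (0.0% of all 13061 tested transcripts were called). Before adjustment, p was under 0.05 for 2 of the 60 and for 844 of all 13061 (6.46%). DESeq2 called 1 member, dd_8692, with 2.48% of all transcripts called, and limma called 0 members, with 0.00766% of all called. The median slope of the members was 0.18 log2 units per region, against 0.08 for all transcripts, and 14 of the 60 slopes were negative, that is, higher toward the head, as were 39.8% of all slopes.

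The most negative slope of the members was that of ENDOG*, with -0.78 ± 0.33 log2 units per region (SE, adjusted p = 0.726 in edgeR), followed by PPP1R37* with -0.69 ± 0.56 (adjusted p = 0.871). The largest positive slopes were 1.14 ± 0.62 for dd_8692 (adjusted p = 0.825) and 1.13 ± 0.52 for dd_8964 (adjusted p = 0.760). Before adjustment over the 13061 transcripts, p was 0.028 for ENDOG* and 0.043 for dd_8964. NCAM1* had 0.37 ± 0.36 (adjusted p = 0.903), dd_7323 had -0.01 ± 0.20 (adjusted p = 0.998) and LRIG2* had 0.08 ± 0.43 (adjusted p = 0.989). Of the 9 left-out genes that could be tested in the same fit, 7 had negative slopes, 3 had an unadjusted p under 0.05, and 0 were called. The steepest of them was *ndl-2*, with -1.73 ± 0.38 (adjusted p = 0.338).

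The non-muscle cells came from the same regions and were not used by the rule. In the 11 non-muscle cells of the head tip, 11.8 ± 4.75 of the 60 transcripts were expressed per cell (SD, n = 11 cells), and in the 51 of regions 3 to 10, 9.51 ± 6.22 (SD, n = 51 cells). Per 1000 expressed transcripts, the non-muscle cells of the head tip had 2.64 members, within the range of 1.81 (region 3) to 3.22 (region 8) of the other regions. Muscle markers in non-muscle cells of the head tip summed to between 4.86 and 377.2 cpm. The 12 epidermal markers summed to 2519 to 11606 cpm there (median 9633) and to 54.0 to 16079 cpm (median 5324) in those of regions 3 to 10. Neoblast markers had medians of 1524 cpm and 4067 cpm. The non-muscle cells of the head tip and of the other regions thus differed in markers, and the part of this in the comparisons was not tested. Of the 51 members expressed in at least 3 non-muscle cells, 29 had a higher share of expressing cells in the head tip than in regions 3 to 10, which is 56.9%, beside 57.3% of all 13349 transcripts with the same filter. After thinning it was 22 of 36 members (61.1%), beside 55.6% of all.

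The slope on the region number was tested in the sums of non-muscle cells of regions 1 and 3 to 10. The edgeR test called 0 of the 51 members, beside 0.0375% of all 13349 transcripts. Before adjustment, p was under 0.05 for 6 of the 51 and for 991 of all (7.42%). DESeq2 called 2 members, dd_10073 and dd_2109, with 1.45% of all called, and limma called 0, with 0.0% of all called. The median slope was 0.08 log2 units per region for the members and 0.02 for all transcripts.

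The members with the widest gaps between the head tip and the other regions in non-muscle cells are given as extremes, with no test. The widest gap was that of dd_10585, which was expressed in 9 of 11 non-muscle cells of the head tip (81.8%, interval 48.2 to 97.7) and in 4 of 51 of the other regions (7.84%, interval 2.18 to 18.9), with summed levels of 364.8 cpm and 13.7 cpm. A gap of this size, 74.0 percentage points, or wider was found for 68 of all 13349 transcripts (0.509%). In muscle it was expressed in 7 of 11 head tip cells and 20 of 104 others, with 382.5 cpm and 158 cpm. The left-out genes *ndk* and *ndl-4* had the same counts of non-muscle cells, 9 of 11 in the head tip and 4 of 51 elsewhere. The non-muscle slope of dd_10585 was -0.97 ± 0.33 log2 units per region (adjusted p = 0.403 in edgeR). It was called in 1 alternative, the fit with the range of cell numbers as a covariate, with a slope of -1.24 (adjusted p = 0.0355), where 164 transcripts were called in all. In that fit a region could count as more than 1 sample, since its cells were summed by range of cell numbers. Over its alternatives the adjusted p lay between 0.0355 and 1.0.

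The next widest gaps were those of PPP1R37* and dd_8692, each expressed in 7 of 11 non-muscle cells of the head tip and 10 of 51 of the other regions. PPP1R37* had 62.02 cpm in head tip non-muscle and 15.3 cpm elsewhere, and dd_8692 had 198 cpm and 49.2 cpm. They were followed by dd_7383 (6 of 11 and 8 of 51 cells) and dd_13326 (4 of 11 and 7 of 51 cells). A gap as wide as that of dd_13326, 22.6 percentage points, was reached by 5 of the 51 members (9.80%) and by 17.1% of all transcripts. In the other direction, dd_2109 was expressed in 0 of 11 non-muscle cells of the head tip and 10 of 51 of the other regions, and UBE2H* in 1 of 11 and 14 of 51. Of the 60, 16 were expressed in none of the 11 non-muscle cells of the head tip, among them NCAM1*, LRIG2* and dd_9946.

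**Figure D4:**
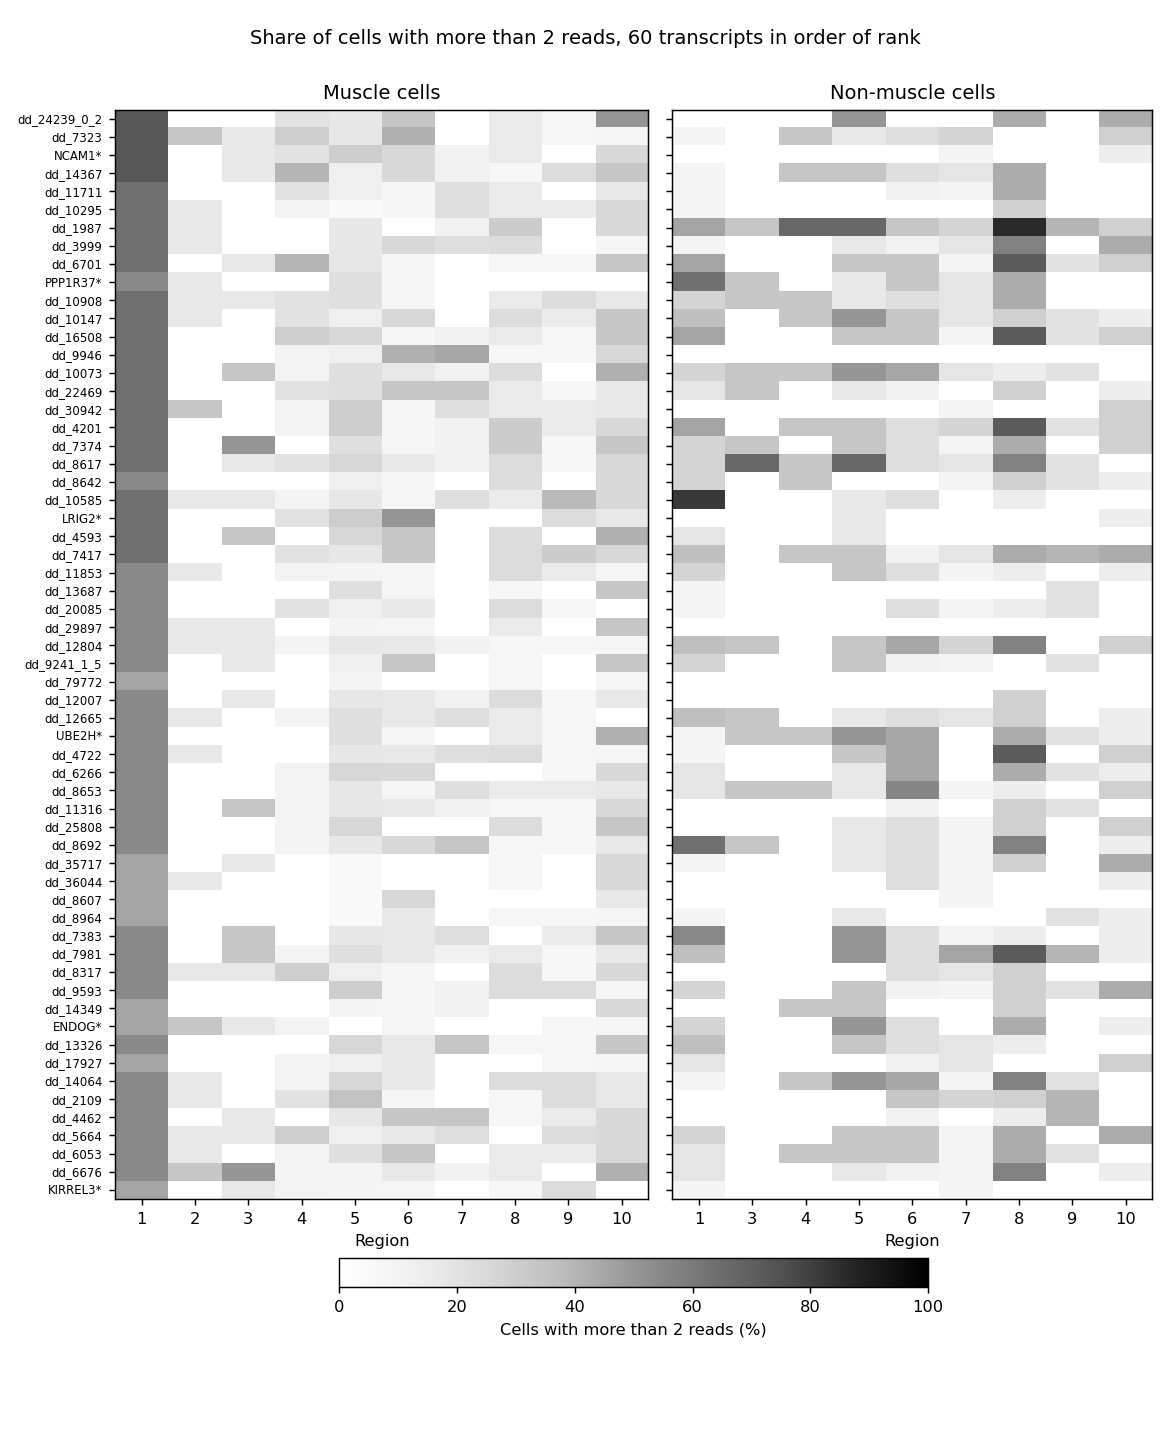
Share of cells with more than 2 reads (white 0%, black 100%) for each of the 60 transcripts in order of rank, by region, in muscle (left) and non-muscle cells (right). The dark first column of the muscle panel is what the rule chose. In the non-muscle panel the darkest cell of the first column is dd_10585 with 81.8%, and the rows of dd_9946, dd_29897 and dd_79772 are empty.

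Expression by cell class outside the head tip was compared in a test that was added after the data had been seen. Sums of muscle and of non-muscle cells were compared within each of regions 3 to 10, with the region as a block. This leaves out the head tip. The rule had kept the members at a low share in muscle of these regions, but had also required them to be expressed in head tip muscle, while all transcripts include those seen in non-muscle cells alone, so the members' counts and median are a description and nothing is read from their distance to those of all transcripts. The edgeR test called 7 of the 60 members, 6 higher in muscle and 1 higher in non-muscle cells, which is 11.7%. Of all 15806 tested transcripts, 4.66% were called, 2.28% higher in muscle and 2.37% higher in non-muscle cells. The median difference, muscle minus non-muscle, was 1.32 log2 units for the members and 0.23 for all transcripts. It was 0.74 and 0.01 with DESeq2, which called 10 members (16.7%) and 7.93% of all, and 0.74 and 0.19 with limma, which called 2 members (3.33%) and 3.17% of all. After thinning, edgeR called 4 of 57 members (7.02%) and 6.51% of all. Without the 4 cells whose markers stood apart, edgeR called 6 of the 60 (10.0%) and 5.62% of all. Called transcripts were higher in muscle in 361 of 736 cases with edgeR, in 807 of 1253 with DESeq2 and in all but 130 with limma.

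The 6 members that were higher in muscle were NCAM1*, dd_9946, dd_10585, dd_4593, dd_13687 and dd_29897, and the same 6 were called without the 4 cells whose markers stood apart. In muscle cells of regions 3 to 10, NCAM1* was expressed in 19 of 98 cells with 105.4 cpm, against 2 of 51 non-muscle cells with 1.78 cpm (log2 difference 6.63 ± 1.78, SE, adjusted p = 0.0191 in edgeR). It was higher in muscle in 7 of 8 regions. Its call was lost after thinning (adjusted p = 0.0774) and without region 5, 6 or 8, where the adjusted p in edgeR was 0.0655, 0.0702 and 0.0523. The adjusted p over its alternatives lay between 0.000123 and 0.0774. The unnamed dd_9946 was expressed in 18 of 98 muscle cells with 43.5 cpm and in 0 of 51 non-muscle cells, whose 2 reads came to 0.0807 cpm, a ratio of 539.1 with a counting interval of 149 to 4455 (adjusted p = 0.00710 in edgeR). It was higher in muscle in 8 of 8 regions, and its adjusted p was at most 0.0305 in the alternatives run.

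For dd_29897, expressed in 10 of 98 muscle cells with 51.3 cpm, the non-muscle cells of regions 3 to 10 had no read (adjusted p = 0.0147 in edgeR). With 3 reads over all these non-muscle cells as the floor, its level was 423.2-fold higher in muscle, and its counting interval began at 343.9-fold. Of the alternatives it missed the call only with limma (adjusted p = 0.0670, range over the alternatives 0.00632 to 0.0670). The transcript with the widest gap in non-muscle cells of the head tip, dd_10585, had 160.2 cpm in muscle and 13.7 cpm in non-muscle cells of regions 3 to 10 (log2 difference 6.11 ± 1.62, adjusted p = 0.0167 in edgeR), was higher in muscle in 7 of 8 regions and was called in its alternatives other than limma (adjusted p = 0.0978, range 1.23e-05 to 0.0978). For dd_4593 the levels were 88.8 cpm and 1.57 cpm (adjusted p = 0.0431 in edgeR) and for dd_13687 90.5 cpm and 3.92 cpm (adjusted p = 0.0326 in edgeR). Both calls were lost without region 6, 8 or 10, and by limma, and the call of dd_4593 also without region 3 and that of dd_13687 also without region 5 and after thinning. The adjusted p over the alternatives lay between 0.0287 and 0.160 for dd_4593 and between 8.29e-08 and 0.385 for dd_13687.

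The 1 member that was lower in muscle was dd_1987, with 15.005 cpm in muscle and 77.4 cpm in non-muscle cells (log2 difference -4.03 ± 1.17, adjusted p = 0.0334 in edgeR) and a lower level in muscle in 7 of 8 regions. Its call was lost by scaling to library size (adjusted p = 0.101, range over the alternatives 0.000369 to 0.296), by limma, after thinning, without the 4 cells whose markers stood apart (adjusted p = 0.0518 in edgeR) and without region 3, 5, 6, 7 or 9. It was expressed in 28 of all 62 non-muscle cells, 5 of them in the head tip. At the other end, dd_9946, dd_29897 and dd_79772 were seen with more than 2 reads in 0 of 62 non-muscle cells, which allows a share of such cells of up to 4.84% at a floor of 3 cells, and dd_79772 had no read in any of them. The fitted log2 differences of transcripts with few or no non-muscle reads depend on the prior count of the fit, so levels are given for these in their place.

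**Figure D5:**
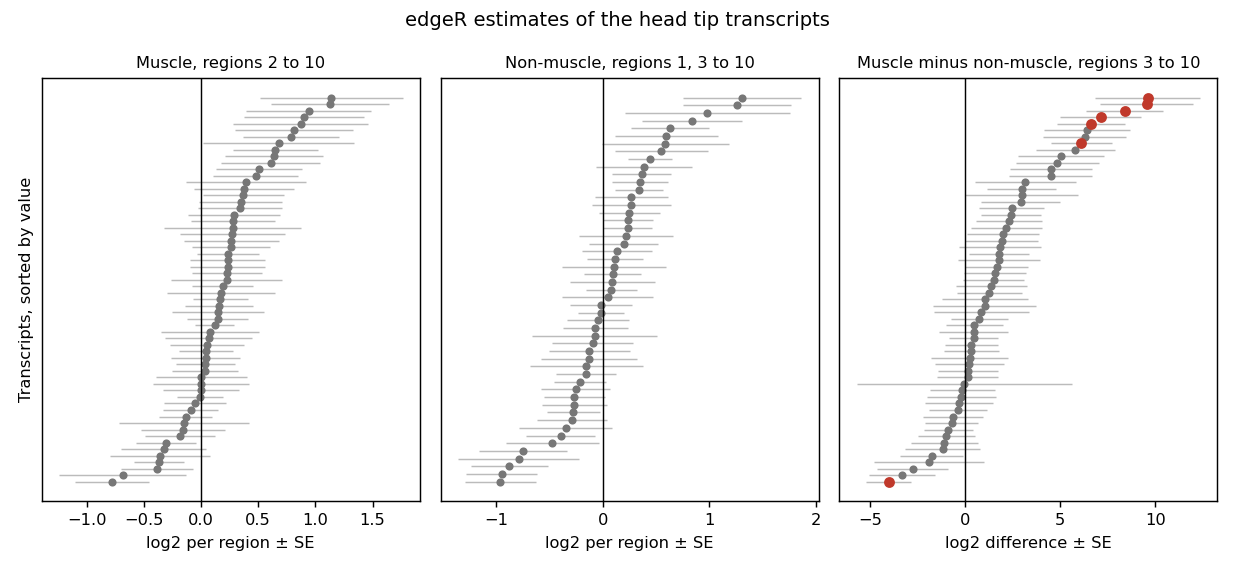
edgeR estimates of the members with their SEs, each panel sorted by value: slope on the region number in muscle of regions 2 to 10 (left, 60 transcripts), slope in non-muscle cells (middle, 51 transcripts) and log2 difference of muscle minus non-muscle cells in regions 3 to 10 (right, 60 transcripts). Red points have an adjusted p under 0.05. There are 0 in both slope panels and 7 in the right panel, 6 of them above 0.

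The muscle cells of the head tip came from different ranges of cell numbers, 8 of them below 450 and 3 from 450 up, and the meaning of these ranges is not stated. On average a member was expressed in 58.3% of the 8 cells and 54.4% of the 3 cells, against 12.4% of the 47 other muscle cells below 450 and 15.4% of the 57 other muscle cells from 450 up. Of the 60 members, 2 were expressed in none of the 3 head tip muscle cells of the higher numbers, dd_3999 and KIRREL3*.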

How the data were processed

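The authors trimmed reads with cutadapt and aligned the remainder by Bowtie 1 against the dd_Smed_v4 assembly (CASAVA 1.7.0 is also named in the submitters' processing notes), left out abundant ribosomal and mitochondrial contigs, added up isotigs and dropped libraries with few expressed transcripts. They deposited whole read counts of 26560 transcripts in 177 cells, without normalization. The deposited SCDE tables hold the authors' own comparisons and were not used.

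The members and the lists were chosen with earlier results of these data known. Counts were converted to cpm on the total of a cell, or summed per region and class. Head tip muscle cells had 78163 to 596424 reads, and other muscle cells a median of 251017. Transcripts were tested if 3 or more cells expressed them, with edgeR 4.0.16 (robust quasi-likelihood, TMM, R 4.3.3), with alternatives by DESeq2 1.42.0 (poscounts) and limma 3.58.1 (log2 of mean cpm + 1). Adjusted p-values are Benjamini-Hochberg, with a threshold of 0.05. Two-sided tests took regions as samples, split by range of cell numbers where these ranges were a covariate. Intervals of shares are exact binomial 95% intervals, and intervals and floors cover counting error only. Named transcripts are the 20 of highest rank, those with a supplement entry, those called, the 5 with the widest gap in non-muscle cells and those around rank 60. Others were chosen after their values were seen. Python 3.11.15 with numpy, pandas 2.3.3, scipy and matplotlib was used.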

Additional observations from a re-analysis of the deposited data

How the results depend on the processing

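Membership of the list depended on the settings of the rule. Of the 60 transcripts, 18 were again among the first 60 when any read counted, 23 with more than 9 reads, 15 after thinning to 50000 reads, 11 with a limit of 0.1 in place of 0.2, 22 in cells numbered below 450, 49 without region 10, and 40 to 47 without 1 head tip muscle cell. A head tip muscle cell expressed 21.8 members on average after thinning, against 5.25 in other muscle, and 25 with more than 9 reads. Members called in the muscle slope were 1 with DESeq2 and 0 in every other alternative, and all transcripts called were 324 with DESeq2, 1 with limma, 5 without the filter, 1 after thinning and 0 to 26 without 1 region (26 without region 10). In the non-muscle slope, members called were 2 with DESeq2, 1 with number ranges as a covariate and 0 otherwise, and all transcripts called were 3 with library size scaling, 193 with DESeq2, 0 with limma, 79 without the filter, 164 with number ranges, 2 after thinning, 11 without the 3 non-muscle cells of high muscle markers, 0 in the contrast of the head tip, which is 1 sum, with regions 3 to 10, and 0 to 15 without 1 region. The non-muscle slope of dd_1987 (0.44) turned to -0.05 without region 9 (range without 1 region -0.0529 to 0.693), and dd_10073, with a slope of -0.88, higher toward the head, was lower in the head tip sum than in regions 3 to 10 (-1.98 log2 units, 1 sum against 8). Members higher in their share of head tip non-muscle cells were 19 of 30 in cells numbered below 450 (63.3%, all transcripts 66.4%), 22 of 46 with more than 9 reads (47.8%, all 52.4%), and 25 to 32 without 1 cell. In the class comparison, members called were 2 with limma, 4 after thinning and 3 to 7 without 1 region (4 without region 5, 3 without region 6), and all transcripts called were 1253 with DESeq2. The class comparison, its alternatives, the fits without cells apart by their markers and the values per 1000 transcripts were chosen after seeing the data.

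With 11 head tip muscle cells and 1 head tip sample per class, shares carry intervals of over 50 percentage points, and the spread between animals was not measured.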
